A study of Rattus norvegicus with 5 samples.

Results

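P2ry12, Tmem119, Cx3cr1, Csf1r, Trem2, Tyrobp and Axl encode 6 surface proteins of microglia, the resident immune cells of the retina, and 1 signalling adaptor. They are 7 of the 25399 genes in the count tables and were found by symbol. No measured value was used to pick them, but earlier results of these data were known when they were chosen. Their unique molecular identifiers (UMIs, the tags that mark single captured RNA molecules) were summed per library and cell class, over barcodes that had 200 genes or more and a mitochondrial share of no more than 20%. The tables come from droplet-based single-cell RNA sequencing of retinas of SD rats in early diabetes. The control library (0 weeks) came from a rat given citrate buffer, and the other control sample was not analysed here. The diabetic libraries came from rats given 1 intraperitoneal dose of streptozotocin, a toxin of pancreatic beta cells, at 45 mg/kg. These rats had a blood glucose above 200 mg/dL and then received a diet high in fat and sugar for 2, 4 or 8 weeks, so diet and streptozotocin cannot be told apart. The labels give neither age nor sex, and there is 1 library of 1 retinal specimen at each time.

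Microglia survey the retinal layers with moving processes and depend on signals from neurons, glia and vessels. P2ry12 senses adenine nucleotides released by injured cells and steers the processes toward them. Cx3cr1 is the receptor of the neuronal chemokine fractalkine (Cx3cl1), and Csf1r, the receptor of Csf1 and Il34, keeps microglia alive. Trem2 binds lipids and lipoproteins such as Apoe and signals through the membrane adaptor Tyrobp, also called DAP12, which recruits the kinase Syk. Axl is a receptor kinase of the TAM family, which binds dying cells through bridging ligands such as Gas6. Tmem119 is a membrane protein used in rodent and human brain to tell resident microglia from other macrophages. In mouse models of neurodegeneration, P2ry12, Tmem119 and Cx3cr1 are known to decrease as microglia take on a disease-associated state, while Trem2, Tyrobp and Axl are part of that state.

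The 4 libraries held 7649 to 16128 barcodes and 20151789 to 34177860 UMIs, and 4283 to 10984 cells per library were kept, 29779 in all, after the doublet-scored barcodes were removed. Pairs of libraries shared 13 to 70 barcode sequences. Microglia were named from 14 other marker genes, among them C1qa, Aif1 and Laptm5, and the 7 genes took no part in naming or in the genes used for clustering. The class is microglia-like by these markers and is called microglia from here on. In control 212 cells were microglia (3.11% of kept cells, exact binomial 95% interval 2.71 to 3.55%). The class had 212 members at 2 weeks (1.93%, 1.68 to 2.21%), 78 at 4 weeks (1.01%, 0.803 to 1.26%) and 163 at 8 weeks (3.81%, 3.25 to 4.42%). Median UMIs per microglial cell were 5253 in control, 2344.5 at 2 weeks, 2919.5 at 4 weeks and 2515 at 8 weeks. Transcripts of 10 rod genes, which microglia should lack, made up 1864 CPM (counts per 1000000 UMIs of the class) in control, 14633 CPM at 2 weeks, 3438 CPM at 4 weeks and 2575 CPM at 8 weeks. All levels below are CPM of the UMIs of the named class or cluster, and intervals on them cover counting error only. With 1 library at each time no test between times was possible.

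All of the genes but Axl were read almost only in microglia, and Axl was also read in vessel-wall cells. Microglia held 98.8% of all P2ry12 UMIs in kept cells, 98.3% of Tmem119, 98.2% of Cx3cr1, 96.6% of Csf1r and 98.5% of Trem2. They held 91.6% of Tyrobp UMIs (interval 90.9 to 92.3%). Most other Tyrobp UMIs lay in an unnamed cluster of 28 immune cells, in which Tyrobp reached 1848 CPM and Csf1r 271 CPM. In these cells P2ry12, Tmem119, Trem2 and Axl had no UMI. Of the 28 cells, 13 were from control, 14 from 2 weeks and 1 from 4 weeks.

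Axl UMIs were split between classes, with 30.4% (26.3 to 34.7%) in microglia. Pericytes, the contractile cells around capillaries, held 222 Axl UMIs at 189 CPM (165 to 216), against 146 UMIs at 52.5 CPM (44.3 to 61.7) in microglia. In pericytes Axl was 298 CPM in control (33 UMIs, 205 to 419), 177 at 2 weeks (180 UMIs, 152 to 204), 181 at 4 weeks (2 UMIs) and 208 at 8 weeks (7 UMIs, 83.6 to 429). The 2-week library contributed 317 of the 375 pericytes, so the pooled pericyte level is mainly that of this library. Müller glia, the radial support cells, gave 5.08 CPM (19 UMIs). Rods, which should express none of the genes, gave at most 4.05 CPM (Tyrobp, 107 UMIs in 22705 rods), and erythroid cells gave 22.2 CPM of Tyrobp (35 UMIs).

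**Figure D1:**
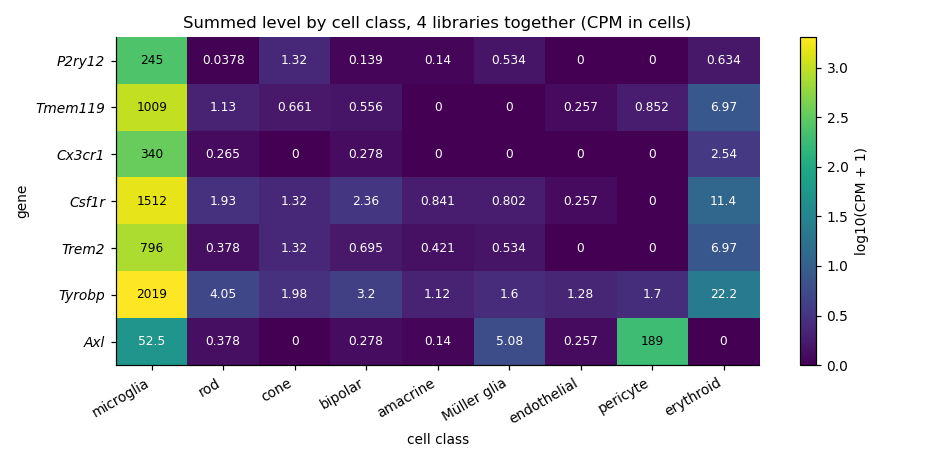
Summed level of each gene (rows) in each named cell class (columns), the 4 libraries together, in CPM of the class, with the number in each cell and colour on a log10(CPM + 1) scale. The first 6 rows are brightest in microglia, with no other named class above 22.2 CPM, and the Axl row is brightest in pericytes (189 CPM) with microglia next (52.5 CPM).

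The proximal promoters of 4 of the genes, 250 bases before to 50 after the annotated start, are shown because 3 of these genes were read almost only in 1 cell class. PU.1, encoded by Spi1, is the textbook lineage factor of microglia and other myeloid cells, and its core letters GAGGAA, which appear as the complement TTCCTC in each case here, are in capitals. The sequences are from RefSeq, build GRCr8, and read 5′ to 3′ on the strand of the gene. They come from chr8:128677017-128677316 (Cx3cr1, minus strand), chr18:56834129-56834428 (Csf1r, plus strand), chr9:20151730-20152029 (Trem2, minus strand) and chr1:90423960-90424259 (Axl, minus strand).
Cx3cr1: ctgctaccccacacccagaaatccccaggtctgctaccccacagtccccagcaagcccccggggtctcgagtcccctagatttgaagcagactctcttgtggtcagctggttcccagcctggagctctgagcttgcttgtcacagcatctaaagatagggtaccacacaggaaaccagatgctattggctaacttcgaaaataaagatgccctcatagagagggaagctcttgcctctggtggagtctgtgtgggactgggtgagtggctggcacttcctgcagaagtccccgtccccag
Csf1r: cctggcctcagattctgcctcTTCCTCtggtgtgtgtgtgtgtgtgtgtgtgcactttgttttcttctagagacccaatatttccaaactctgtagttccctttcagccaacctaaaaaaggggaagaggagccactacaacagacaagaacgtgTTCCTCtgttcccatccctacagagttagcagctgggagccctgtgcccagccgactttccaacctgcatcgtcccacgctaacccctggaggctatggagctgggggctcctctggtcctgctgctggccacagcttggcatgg
Trem2: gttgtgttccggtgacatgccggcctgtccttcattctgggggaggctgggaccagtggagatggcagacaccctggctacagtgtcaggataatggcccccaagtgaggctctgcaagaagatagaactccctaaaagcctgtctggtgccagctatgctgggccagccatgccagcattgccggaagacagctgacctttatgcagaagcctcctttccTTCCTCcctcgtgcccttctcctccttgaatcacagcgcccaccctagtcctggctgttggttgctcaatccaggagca
Axl: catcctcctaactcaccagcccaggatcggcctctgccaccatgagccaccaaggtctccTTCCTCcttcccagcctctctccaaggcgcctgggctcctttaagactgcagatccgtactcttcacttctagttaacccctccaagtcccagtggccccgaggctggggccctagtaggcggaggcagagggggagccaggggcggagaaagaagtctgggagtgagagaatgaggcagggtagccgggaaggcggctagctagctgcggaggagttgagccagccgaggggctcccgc

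GAGGAA was searched on both strands. It occurred 2 times in the Csf1r window, 1 time each in the Trem2 and Axl windows and not in the Cx3cr1 window, and 27.6% of all 33469 promoter windows of this length hold it. The AP-1 letters TGANTCA, which read the same on both strands, occurred 1 time, across the start in the Trem2 window, against 7.33% of all windows. The Sp1 letters GGGCGG, searched with their complement, occurred 1 time, in Axl, against 33.1% of all windows. The letters TATAAA, likewise searched with their complement, were in none of the 4 windows and in 14.2% of all windows. No motif overlapped another. The Axl window had the highest GC content, 63.0% with 11 CpG pairs, against 54.3 to 57.3% and 4 to 5 CpG pairs in the other 3, and medians of 51.7% and 7 over all windows. These matches describe letters only.

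Among the receptors of homeostatic microglia, P2ry12 had its lowest level at 4 weeks. The control library gave 278 CPM (298 UMIs), the 2-week library 203 CPM (142 UMIs), the 4-week library 118 CPM (38 UMIs) and the 8-week library 296 CPM (203 UMIs). The 8-week and control levels did not differ beyond counting error, 2 weeks lay below control, and 4 weeks lay below 2 weeks. With the estimated free RNA subtracted 2 weeks no longer lay below control, at a log2 ratio of -0.01 (-0.32 to 0.28). The log2 ratio to control was -0.45 (interval -0.75 to -0.16) at 2 weeks, -1.22 (-1.76 to -0.74) at 4 weeks and 0.09 (-0.17 to 0.35) at 8 weeks.

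Tmem119 was at 1162 CPM in control (1247 UMIs), 782 CPM at 2 weeks (547 UMIs), 932 CPM at 4 weeks (300 UMIs) and 1038 CPM at 8 weeks (713 UMIs). Control was highest and 2 weeks lowest, and only the neighbours 8 and 4 weeks overlapped within counting error. Its log2 ratios to control were -0.57 (-0.72 to -0.43), -0.32 (-0.51 to -0.14) and -0.16 (-0.30 to -0.03) at 2, 4 and 8 weeks. Subtracting free RNA gave -0.14 (-0.29 to 0.01) at 2 weeks and -0.13 at 8 weeks, both with intervals that reach 0. The 4-week ratio was -0.24 or lower in all 16 alternatives, so after this subtraction 4 weeks lay below 2 weeks.

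Cx3cr1, the fractalkine receptor, was at 414 CPM in control (444 UMIs), 244 CPM at 2 weeks (171 UMIs), 338 CPM at 4 weeks (109 UMIs) and 325 CPM at 8 weeks (223 UMIs). Control, 4 weeks and 8 weeks followed each other without a gap beyond counting error, and 2 weeks lay below all of them. The log2 ratio to control was -0.76 (-1.02 to -0.50) at 2 weeks, -0.28 (-0.61 to 0.02) at 4 weeks and -0.35 (-0.59 to -0.11) at 8 weeks. With free RNA subtracted the diabetic libraries lay close together, at 363, 376 and 365 CPM at 2, 4 and 8 weeks. The 2-week log2 ratio was then -0.32 (-0.59 to -0.07).

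Csf1r, the survival receptor, was at 1706 CPM in control (1831 UMIs), 1374 CPM at 2 weeks (961 UMIs), 1478 CPM at 4 weeks (476 UMIs) and 1367 CPM at 8 weeks (939 UMIs). Control lay above the 3 diabetic libraries, which did not differ from their neighbours beyond counting error. The differences were small, with log2 ratios to control of -0.31 (-0.43 to -0.20), -0.21 (-0.36 to -0.06) and -0.32 (-0.43 to -0.21). The 2-week direction turned when free RNA was subtracted, to 0.12 (0.01 to 0.24).

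The lipid receptor Trem2 and its adaptor Tyrobp had different orders. Trem2 was at 861 CPM in control (924 UMIs), 693 CPM at 2 weeks (485 UMIs), 549.6 CPM at 4 weeks (177 UMIs) and 914 CPM at 8 weeks (628 UMIs). As for P2ry12, 8 weeks and control overlapped and 4 weeks was lowest. After thinning to 1000 UMIs per cell Trem2 was at 636 CPM at 2 weeks and 633 CPM at 4 weeks. The thinned 4-week log2 ratio was -0.46, with an interval of -1.03 to 0.05 that includes 0. In the chemokine-low cluster described below, 2 weeks (453 CPM) was lower than 4 weeks (603 CPM). Subtracting free RNA moved the 2-week log2 ratio of Trem2 from -0.31 to 0.12 (-0.04 to 0.28). Tyrobp was at 1961 CPM in control (2105 UMIs), 2009.6 CPM at 2 weeks (1406 UMIs), 2317 CPM at 4 weeks (746 UMIs) and 1978 CPM at 8 weeks (1359 UMIs). Its 4-week level was the highest, and the other 3 libraries overlapped. At 4 weeks the log2 ratio to control was -0.64 (-0.89 to -0.41) for Trem2 and 0.24 (0.12 to 0.36) for Tyrobp. The Tyrobp interval reached below 0 under TMM scaling, at 0.10 (-0.02 to 0.22), and with cells gated by single markers, at 0.09 (-0.03 to 0.21). It also did so within each of the 2 microglial clusters described below. The Tyrobp ratio was 0.08 (-0.07 to 0.22) in the chemokine-low cluster and 0.03 (-0.28 to 0.31) in the chemokine-high cluster.

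The TAM receptor Axl, the gene with the fewest UMIs, was at 65.2 CPM in control (70 UMIs, 50.8 to 82.4), 8.58 CPM at 2 weeks (6 UMIs, 3.15 to 18.7), 106 CPM at 4 weeks (34 UMIs, 73.1 to 148) and 52.4 CPM at 8 weeks (36 UMIs, 36.7 to 72.6). The 2-week library lay far below the others, 4 weeks was highest, and control and 8 weeks overlapped. A UMI of Axl was read in 49 of 212 control microglia and in 5 of 212 at 2 weeks. The log2 ratio to control was -2.82 (-4.42 to -1.73) at 2 weeks, a 7.07-fold lower level, then 0.71 (0.06 to 1.31) at 4 weeks and -0.31 (-0.94 to 0.28) at 8 weeks. The 4-week interval reached below 0 under TMM scaling, at 0.57 (-0.08 to 1.17), and with cells gated by single markers, at 0.65 (-0.01 to 1.25). Pericytes of the same 2-week library held 180 Axl UMIs. Of its Axl UMIs, 2.73% lay in microglia (1.01 to 5.84%), against 47.3% in control, 58.6% at 4 weeks and 65.5% at 8 weeks. These shares also move with the number of pericytes captured, 317 at 2 weeks and 5 to 40 in the others.

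**Figure D2:**
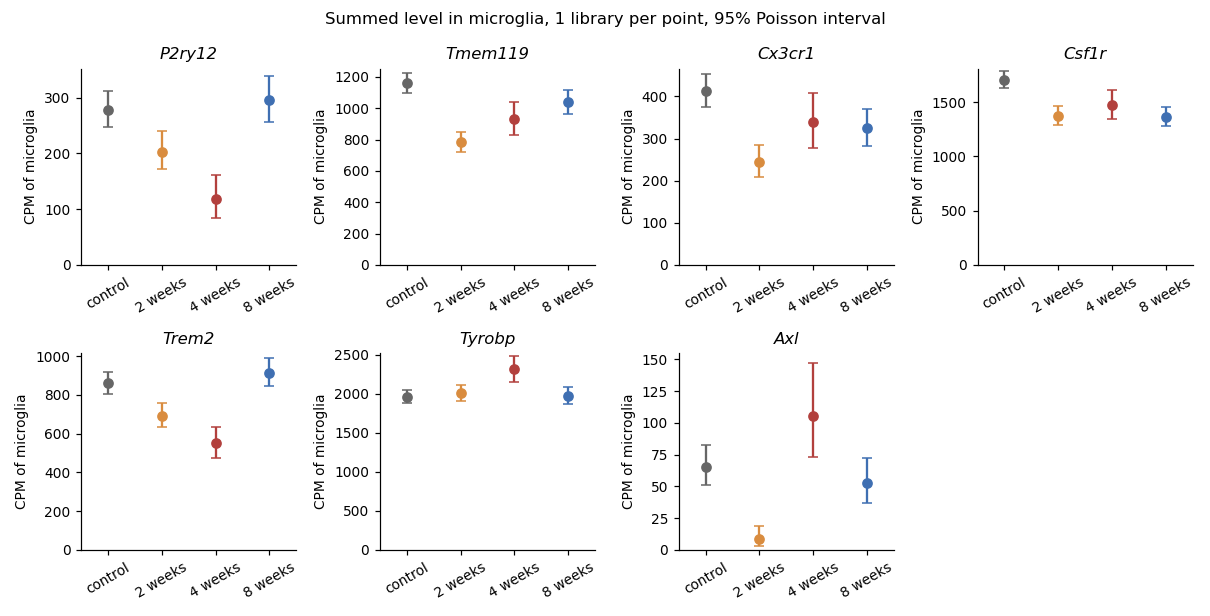
Level of the 7 genes in microglia (y axis, CPM of microglial UMIs) in the 4 libraries (x axis), with exact Poisson 95% intervals as bars and 1 library per point. P2ry12 and Trem2 are lowest at 4 weeks, Tmem119 and Cx3cr1 at 2 weeks, and Axl drops to 8.58 CPM at 2 weeks.

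At 2 weeks 1 gene, Axl, was at least 2-fold lower than control, where 2.54% of the 4606 genes used in microglia were, and none was at least 2-fold higher, against 6.75% of all genes. At 4 weeks 1 gene, P2ry12, was at least 2-fold lower, against 7.23% of 4314 genes, and none was higher, against 4.52%. At 8 weeks none was 2-fold lower or higher, against 2.22% and 1.63% of 4545 genes. At 1.5-fold the genes lower at 2 weeks were Axl and Cx3cr1 (2 of 7, against 8.32% of all genes), with none higher (20.5%). At 4 weeks P2ry12 and Trem2 were lower (2 of 7, against 15%) and Axl was higher (1 of 7, against 16.9%), and at 8 weeks none was lower (9.15%) or higher (6.38%). Under TMM scaling Axl at 4 weeks fell short of 1.5-fold, while P2ry12 (-0.63) and Tmem119 (-0.75) passed it at 2 weeks.

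Counting error alone separated more of the genes from control, since all but Axl have many UMIs. At 2 weeks the interval lay below 0 for 6 of the 7, all but Tyrobp, against 8.55% of all genes used, and above 0 for none, against 21.4%. At 4 weeks it lay below 0 for 4 (P2ry12, Tmem119, Csf1r and Trem2), against 9.18%, and above 0 for Tyrobp and Axl, against 13.6%. At 8 weeks it lay below 0 for 3 (Tmem119, Cx3cr1 and Csf1r), against 7.55%, and above 0 for none, against 9.2%. With free RNA subtracted, the 2-week interval lay below 0 for Cx3cr1 and Axl and above 0 for Csf1r and Tyrobp (0.47, 0.37 to 0.57). Under TMM scaling neither Tyrobp nor Axl had an interval above 0 at 4 weeks, and that of Tyrobp at 2 weeks lay below 0, at -0.15 (-0.24 to -0.05). Differences between animals are not in these intervals. The median log2 ratio of the 7 genes was -0.45 at 2 weeks, -0.28 at 4 weeks and -0.16 at 8 weeks, beside medians of 0.15, 0.11 and 0.00 over all genes used. TMM scaling moved all ratios by -0.18 at 2 weeks and -0.14 at 4 weeks. Subtracting the estimated free RNA brought the 2-week median of the 7 genes to -0.01 and left -0.27 at 4 weeks and -0.13 at 8 weeks. The 2-week estimate cannot hold for the chemokine-low microglia described below. The 3 comparisons share 1 control library, so a high or low control value enters all of them.

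**Figure D3:**
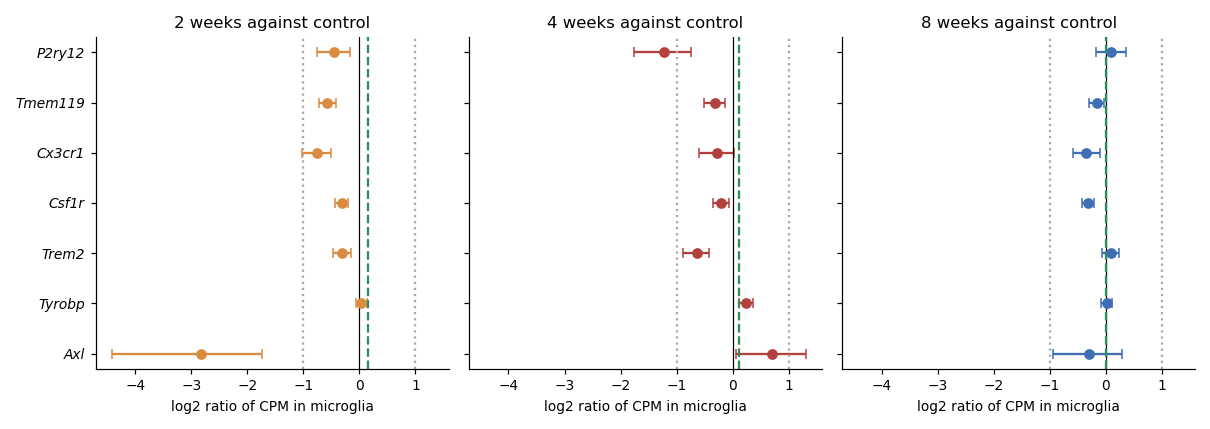
Log2 ratio of the CPM in microglia to control for each gene (rows) at 2, 4 and 8 weeks (panels), with exact conditional 95% intervals, dotted lines at 2-fold and a dashed green line at the median of all genes used. Axl at 2 weeks (-2.82) and P2ry12 at 4 weeks (-1.22) are the points beyond the 2-fold lines.

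The 2-week values differed between 2 clusters that made up the microglia. One cluster of 239 cells was led by the chemokines Ccl4 and Ccl3 and is called chemokine-high, and the other 426 cells are called chemokine-low. In control, Ccl4 was at 10641 CPM in the first and 4.36 CPM in the second. From control to 8 weeks the chemokine-low cluster held 134, 109, 70 and 113 cells, and the chemokine-high cluster held 78, 103, 8 and 50. Values of the chemokine-high cluster at 4 weeks therefore rest on 8 cells.

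In the chemokine-low cluster at 2 weeks, Tmem119 was at 199.7 CPM (26 UMIs) against 1258 CPM in control, P2ry12 at 53.8 CPM (7 UMIs) against 321 CPM, and Cx3cr1 at 53.8 CPM (7 UMIs) against 423 CPM. Their log2 ratios to control within the cluster were -2.63 (-3.28 to -2.09), -2.48 (-3.92 to -1.50) and -2.88 (-4.31 to -1.91). Csf1r (-1.25) and Trem2 (-1.24) were also more than 2-fold lower. Tyrobp differed from these, at 2189 CPM (285 UMIs) against 2338 CPM in control, a log2 ratio of -0.09 (-0.29 to 0.10). In the chemokine-high cluster at 2 weeks the same ratios were -0.25 (-0.42 to -0.09) for Tmem119, -0.05 (-0.40 to 0.29) for P2ry12, -0.50 (-0.79 to -0.21) for Cx3cr1, -0.16 for Csf1r and 0.10 for Trem2. There Tyrobp was at 1969 CPM against 1680 CPM in control, a log2 ratio of 0.23 (0.11 to 0.35).

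The chemokine-low cells of the 2-week library stood apart in other measures. Their median was 1053 UMIs per cell, against 1793 in control, 2319.5 at 4 weeks and 1146 at 8 weeks. Rod transcripts made up 46328 CPM of their UMIs, against 2628 CPM in the control cells of the cluster and 94975 CPM in the rods of the 2-week library. This is above the 39430 CPM of all deposited barcodes of that library, the reference for free RNA. The free RNA estimate therefore cannot hold for these cells. The median mitochondrial share of the 2-week chemokine-low cells was 9.13%, against 6.11% in control. The markers that named the class were lower in them too, with 13 of the 14 below control, 7 of them at least 2-fold, and a median log2 ratio of -0.97. C1qa was at 3134 CPM against 6565 CPM. The share of the low receptor levels that goes with these measures was not tested, nor was whether these barcodes hold intact microglia alone. The 2-week ratios over all microglia include them. Shallow cells were lower in some of the genes in the control library as well: below 2000 UMIs per cell Tmem119 was at 484 CPM (36 UMIs) and P2ry12 at 80.7 CPM (6 UMIs), against 1212 CPM and 292 CPM in deeper cells, while Tyrobp was at 2206 CPM and 1943 CPM.

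Values of Axl and P2ry12 were also taken in subsets of the microglia. Among microglia with at least 2000 UMIs, Axl was at 6.63 CPM at 2 weeks (4 UMIs in 116 cells) against 67.1 CPM in control, a log2 ratio of -3.18 (-5.26 to -1.92). In the chemokine-high cluster alone the ratio was -3.29 (-5.38 to -1.99), from 4 UMIs against 47. P2ry12 at 4 weeks had a log2 ratio of -1.18 (-1.73 to -0.70) in the deeper cells, where 4 weeks was the lowest library, and -1.36 (-1.97 to -0.81) in the chemokine-low cluster, where 2 weeks was lower still. After thinning to 1000 UMIs per cell, 11 UMIs at 4 weeks against 44 in control gave -0.41, with an interval of -1.56 to 0.52 that includes 0. The higher Axl level at 4 weeks lay in the chemokine-low cluster, at 116 CPM (30 UMIs) against 50.2 CPM in control (23 UMIs), a log2 ratio of 1.20 (0.38 to 2.06). In the chemokine-high cluster it was -0.12 (-2.21 to 1.17), from 4 UMIs.

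**Figure D4:**
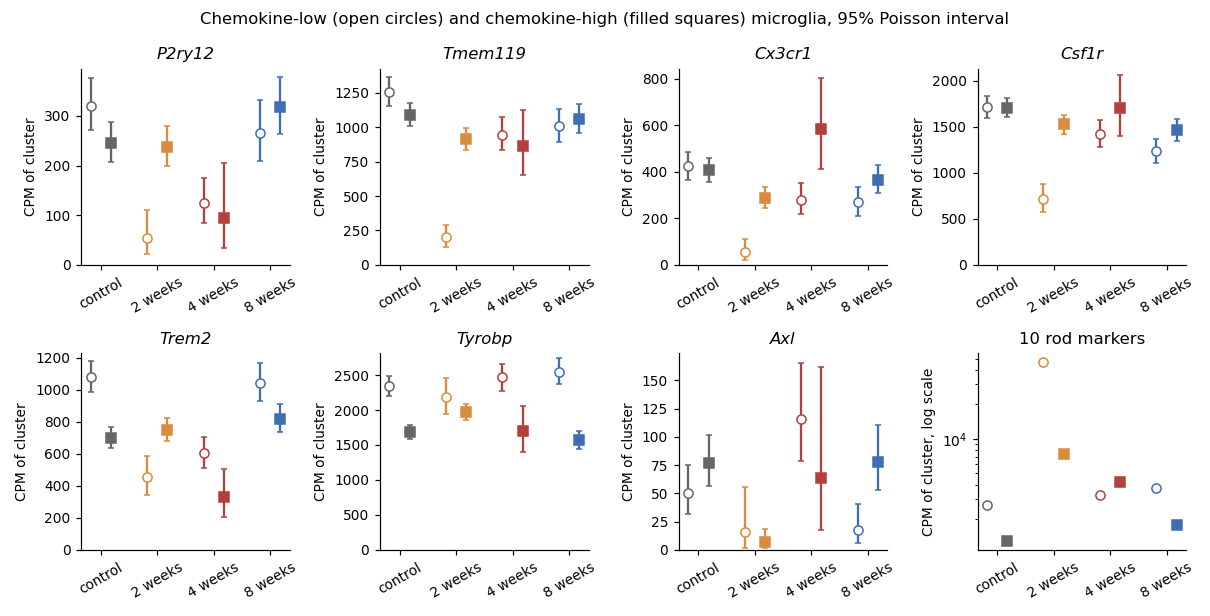
Level of the 7 genes (y axis, CPM of the cluster's UMIs, exact Poisson 95% intervals) in chemokine-low (open circles) and chemokine-high microglia (filled squares) of each library (x axis), and the summed level of 10 rod markers on a log scale in the last panel. At 2 weeks the open circles of P2ry12, Tmem119 and Cx3cr1 lie far below the squares, the Tyrobp pair does not, and the rod markers of the open circle reach 46328 CPM.

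Per cell, the genes were compared after each cell was thinned to 1000 UMIs, which left 175 control microglia and 162, 60 and 118 at 2, 4 and 8 weeks. A Cx3cr1 UMI was found in 32.0% of the control group (25.2 to 39.5%), and in 16.0% of the 2-week, 16.7% of the 4-week and 19.5% of the 8-week cells. Control was the highest of the 4, and the diabetic libraries lay close together. For P2ry12 the shares were 21.7%, 16.7%, 16.7% and 20.3%, and for Tmem119 57.1%, 44.4%, 45.0% and 54.2%. Csf1r was found in 62.3 to 70.9% of cells, Trem2 in 43.8 to 60.2% and Tyrobp in 75.3 to 81.7%. Axl was found in 5.14% of the control group, 0.617% of the 2-week cells, 6.67% at 4 weeks and 2.54% at 8 weeks, from 9, 1, 4 and 3 cells. In rods thinned the same way no gene exceeded 0.756%, the Tyrobp share in control, and the unthinned medians were 846 to 1025 UMIs. Without thinning a Cx3cr1 UMI was found in 63.7% of control microglia and in 40.1%, 46.2% and 50.3% at 2, 4 and 8 weeks, and these shares also follow depth.

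Most thinned microglia carried several of the genes at once. At least 4 of the 7 were read in 41.1% of the control group (33.8 to 48.8%), in 27.2% of the 2-week cells (20.5 to 34.7%), in 33.3% at 4 weeks and in 39.8% at 8 weeks. None was read in 1.14% of the control group, in 8.02% of the 2-week cells (4.34 to 13.3%), in 1.67% at 4 weeks and in 0.847% at 8 weeks. Of the 13 cells without any at 2 weeks, 12 lay in the chemokine-low cluster, 20.3% of its 59 thinned cells, where the median was 2 genes per cell against 3 in the other libraries.

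**Figure D5:**
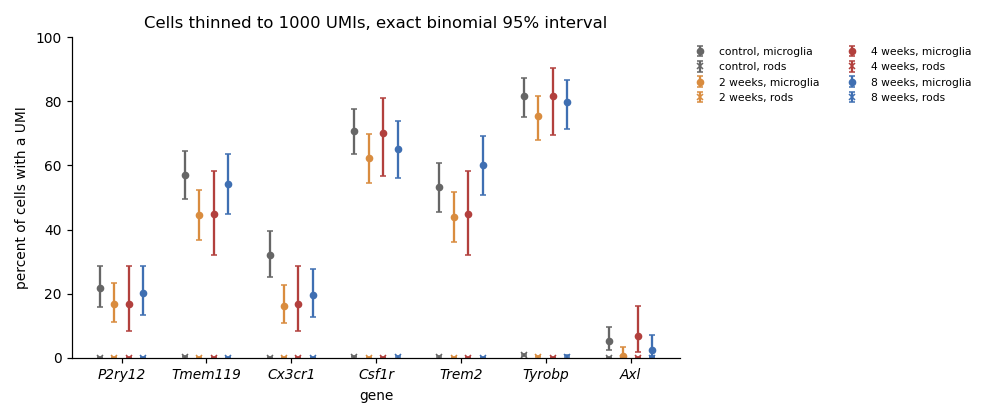
Share of cells (y axis, percent) with at least 1 UMI of each gene (x axis) after thinning to 1000 UMIs per cell, for microglia (circles) and rods (crosses) of the 4 libraries, with exact binomial 95% intervals. Microglial shares run from 0.617% (Axl at 2 weeks) to 81.7% (Tyrobp in control), and rods stay at or below 0.756%.

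The ligands of these receptors and of the TAM family were read in several classes. Il34 was highest in pericytes, at 154 CPM in control (17 UMIs), 37.3 CPM at 2 weeks (38 UMIs) and 119 CPM at 8 weeks (4 UMIs), with no UMI in the 5 cells at 4 weeks, and Csf1 did not exceed 14.5 CPM in any named class over the libraries together. Cx3cl1 was read in amacrine cells (28.2 to 44.3 CPM over the libraries), bipolar cells (17.9 to 47.7 CPM) and endothelial cells (14.3 to 49.0 CPM, highest at 2 weeks with 121 of the 153 UMIs). Barcodes outside the filters, which were given no class, held more Cx3cl1, with 1415 UMIs (38.9 CPM) against 820 in all kept cells (14.0 CPM). Over the libraries together Gas6 was highest in endothelial cells at 572 CPM. Pros1, another ligand of the TAM family, was highest in Müller glia at 107 CPM, as was Apoe at 27143 CPM. Gas6 in endothelial cells was at 377 CPM in control and 529 to 722 CPM in the diabetic libraries. Of 10 ligand genes, 5 passed the filter on low values within microglia. Apoe, a Trem2 ligand that microglia also make, was at 3061 CPM in control microglia, 4965 at 2 weeks, 13238 at 4 weeks and 12140.0 at 8 weeks, with log2 ratios to control of 0.70, 2.11 and 1.99. Apoe is also abundant in Müller glia, whose part in these values was not tested. With free RNA subtracted the Apoe ratios were 1.03, 2.19 and 2.09. Gas6 in microglia was at 95.04, 152, 208 and 141 CPM in the same order, with log2 ratios of 0.67, 1.13 and 0.57. Its 4-week ratio was 1.00 under TMM scaling, just under 2-fold, and rods held Gas6 at 160 CPM. The TAM receptor Mertk, at 115, 130.1, 152 and 109 CPM, was not low at 2 weeks, where its log2 ratio was 0.18 (-0.22 to 0.59), and Tyro3 had 1 UMI.

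Downstream of the receptors, none of 19 signalling genes used at 2 weeks was 2-fold apart from control, and at 4 weeks 2 of 18 were lower, Syk and Adam17, the sheddase of Trem2 and Csf1r. Syk, the kinase that Tyrobp recruits, had 47 UMIs in control, 31 at 2 weeks, 4 at 4 weeks and 19 at 8 weeks, and its 4-week log2 ratio was -1.66 (-3.75 to -0.37). Inpp5d, a phosphatase that limits this pathway, had a 2-week level of 234 CPM against 144 CPM in control, with 0.70 (0.37 to 1.02) as the log2 ratio. The median of the signalling list was 0.10, 0.04 and 0.08 at 2, 4 and 8 weeks, near the 0.15, 0.11 and 0.00 of all genes. For this list and those below, 6.75% of all genes used were at least 2-fold higher and 2.54% lower at 2 weeks. The shares were 4.52% and 7.23% at 4 weeks, and 1.63% and 2.22% at 8 weeks.

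Of 25 other genes of microglial identity used, 1 was at least 2-fold lower at 2 weeks (Rhob), 4 were lower (P2ry13, Gpr34, Selplg and Rhob) at 4 weeks, and none was 2-fold apart at 8 weeks, with medians of -0.02, -0.28 and -0.04. After subtraction of free RNA their 2-week median was 0.38, and no gene was at least 2-fold lower. Among receptors near P2ry12 in function, P2ry13, a nucleotide receptor, was at 75.5, 51.5, 27.9 and 48.0 CPM from control to 8 weeks, and its 4-week log2 ratio was -1.36 (-2.61 to -0.44) from 9 UMIs. Gpr34, a lysophosphatidylserine receptor, was at 177, 170.1, 80.7 and 188 CPM, with -1.11 (-1.78 to -0.54) at 4 weeks from 26 UMIs. P2ry13 and Gpr34 were among the markers that named the class. The lineage factor Spi1 was at 294, 187, 295.0 and 274 CPM. Its 2-week log2 ratio was -0.65 (-0.95 to -0.35) without subtraction of free RNA. Sall1, which maintains microglial identity in mouse, was at 120.2, 184, 137 and 122 CPM.

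Of 14 genes of the disease-associated state used, 1 was at least 2-fold higher (Fabp5) and 2 lower (Cd9 and Cd68) at 2 weeks, 3 higher (Apoe, Cd68 and Fabp5) and 2 lower (Cd9 and Igf1) at 4 weeks, and 1 higher (Apoe) and 1 lower (Cd9) at 8 weeks. Their medians were -0.31, 0.16 and -0.05. At 2 weeks the 1 of 14 higher lay near the share of all genes, 6.75%, and the 2 lower stand against 2.54%. Spp1 had 18 UMIs in control and 2, 0 and 0 later, and Lpl had none in any library. The tetraspanin Cd9 was at 346, 147, 155 and 159 CPM, below control at every time. The Fabp5 log2 ratios of 2.65 at 2 weeks and 1.14 at 4 weeks became 0.01 and -0.98 with free RNA subtracted, so its direction at 4 weeks turned. The complement and phagocyte list was near control, with 0, 1 (Ctss) and 0 of 7 genes at least 2-fold lower, none higher, and medians of -0.29, 0.14 and 0.20. Cycling genes gave 2 used genes, both at least 2-fold lower at 4 weeks (Pcna and Stmn1), and Mki67 had at most 5 UMIs in any library.

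In the 4-week library, where P2ry12 and Trem2 were low, most inflammatory and immediate early transcripts were also low over all microglia. Of 9 inflammatory genes used, 7 were at least 2-fold lower at 4 weeks and 1 higher (Cxcl10), with a median of -1.86, against 2 lower at 2 weeks and 3 lower and 1 higher at 8 weeks. Of 14 immediate early genes, 11 were at least 2-fold lower at 4 weeks, with a median of -1.68, against 2 at 2 weeks and none at 8 weeks. Ccl3 was at 4769, 2556, 944 and 2782 CPM and Jun at 8170, 6665, 2099 and 6155 CPM from control to 8 weeks. The chemokine-high cluster held 36.8% of control microglia, 48.6% at 2 weeks, 10.3% at 4 weeks and 30.7% at 8 weeks. Within the chemokine-low cluster the 4-week ratios of P2ry12 (-1.36) and Trem2 (-0.84, -1.11 to -0.58) were as low as over both clusters. The chemokines, which define the clusters, were not low there. Ccl3 was at 81.2 CPM at 4 weeks (21 UMIs) against 19.6 CPM in control (9 UMIs), a log2 ratio of 2.00 (0.86 to 3.36). Ccl4 was at 50.3 CPM (13 UMIs) against 4.36 CPM (2 UMIs). In this cluster both were also above control at 2 weeks (Ccl3 161 CPM, Ccl4 353 CPM) and at 8 weeks (90.6 and 62.7 CPM). In the 8 chemokine-high cells at 4 weeks the Ccl3 ratio was -0.89 (-1.07 to -0.72). Dissociation of the tissue took about 40 min at 37 °C, and the part of handling in these levels was not tested.

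Of the markers of other immune cells, the dendritic, granulocyte and lymphocyte lists were each at most 29.8 CPM in the microglia. The macrophage and monocyte lists were higher. Mrc1 and Cd163, which mark perivascular macrophages, and Cd3e of T cells had no UMI in any library. The 7 macrophage markers in the tables together were at 34.5 CPM in control, 42.9 at 2 weeks, 74.5 at 4 weeks and 112 at 8 weeks. Lyve1, one of them, was at 39.3 CPM at 8 weeks (27 UMIs) and 6.52 CPM in control. The monocyte list, nearly all of it Lyz2, which microglia also express, was at 1135, 1131, 708 and 1274 CPM. The genes whose pattern over 29 combinations of 9 classes and a library was most like the mean of the 7 genes were Fcgr3a, Siglec5, Gna15, Tlr7, Fcgr2b, Fcgr1a, Ms4a6a, Hcls1, Irf5 and Adgre1, with Pearson correlations of log2(CPM + 1) from 0.99 down. The points share libraries and free RNA, and the correlations are a description. Against the same mean, which holds the gene itself, P2ry12, Tmem119, Cx3cr1, Csf1r, Trem2 and Tyrobp had correlations of 0.97 to 0.99, and Axl 0.71.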

How the data were processed

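The authors deposited raw UMI counts per gene and barcode, for 25399 genes, made with Cell Ranger 3.0.1 on build Rnor_6.0 per the submitters' processing notes. The annotation release is not given in the sources used here, and every deposited barcode has at least 500 UMIs. Barcodes with 200 genes or more and a mitochondrial share of no more than 20% were scored for doublets per library with Scrublet in scanpy 1.11.5. The highest-scoring 0.8% per 1000 barcodes were removed, 3204 in all. Counts were log-normalised, and 2000 variable genes (without the 7 members), 30 components and a graph of 15 neighbours went into leidenalg 0.10.2, which split the cells at resolution 1.0 into 31 clusters. Clusters were named from marker lists and otherwise stayed unnamed.

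Counts were summed per class and library. Log2 ratios add 0.5 counts to each sum and carry exact conditional 95% intervals, levels exact Poisson intervals, and shares exact (Clopper-Pearson) binomial intervals, which leave out differences between animals and preparations. A gene was used where its levels averaged 20 CPM or more across libraries and the pair held 30 UMIs or more. A gene at 0 in 1 library would be given as a bound at 3 counts. Free RNA was estimated from 10 rod markers, against the sum of all deposited barcodes, as 9.88% of microglial UMIs in control and 37.1%, 10.9% and 12.1% at 2, 4 and 8 weeks. In the 2-week chemokine-low cells the rod markers were at 46328 CPM, above the 39430 CPM of that sum. The estimate cannot hold for these cells, which limits all 2-week values with free RNA subtracted. TMM factors came from edgeR 4.0.16 in R 4.3.3. The ratio and its interval were tested on simulated independent Poisson counts, the model that the interval itself assumes. That test does not cover variation between cells, which the Poisson and ratio intervals leave out too. In the 4-week microglia 1 cell held 12.8% of the Cx3cr1 UMIs. Named genes are the 7 members, a fixed set from the related lists, up to 6 per list with the widest ratio whose interval excludes 0, and the 10 most alike; other genes named within a count of 2-fold changes were chosen after their values were seen. The members and lists were chosen with earlier results of these data known. Alternatives covered filters, doublets, clustering, scaling, thinning, free RNA and thresholds, and 4 subsets of the microglia were added after seeing the data. A few genes, and the results of 1 subset, are not reported here. Promoter windows come from RefSeq, build GRCr8, which differs from the build of the counts.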

Additional observations from a re-analysis of the deposited data

Results flagged for a closer look

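Axl in microglia lay on opposite sides of control at 2 diabetic times. The log2 ratio to control was -2.82 (interval -4.42 to -1.73) at 2 weeks and 0.71 (0.06 to 1.31) at 4 weeks. Under TMM scaling the 4-week interval includes 0, at 0.57 (-0.08 to 1.17). Each time is 1 library, so the difference between the times was not tested. The 2-week value rests on 6 UMIs. It lay between -3.29 and -1.42 over 16 alternatives, and the 4-week value was -0.12 in the chemokine-high cluster alone, where 4 UMIs in 8 cells support it. Rod transcripts were at 14633 CPM in the 2-week microglia and 3438 CPM in the 4-week microglia, and with free RNA subtracted the Axl ratios were -2.92 and 0.73. Pericytes, the other class with Axl, had marker sums of 41.4 CPM in microglia at 2 weeks and 9.32 CPM at 4 weeks.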

How the results depend on the processing

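No paired analysis was possible because each group has 1 library and no test was made. The count of members at least 2-fold lower at 2 weeks (1) was 2 at 1.5-fold, 0 at a mean of 100 CPM and 5 in the chemokine-low cluster alone. At 4 weeks (1) it was 2 at 1.5-fold, 0 at 3-fold and 2 in the chemokine-high cluster alone, and the count at least 2-fold higher (0) was 1 at 1.5-fold and 1 in the chemokine-low cluster alone. The 2-week counts at 100 CPM and in the chemokine-low cluster are of 6 genes used. No share over all genes is given beside the counts within clusters, so they are not set against such a share. With free RNA subtracted, genes at least 2-fold apart numbered 1 of the cycling and 3 of the disease-associated list at 4 weeks, 2 of the identity, 1 of the inflammatory and 1 of the signalling list at 2 weeks, and 1 of the ligand list at 8 weeks. TMM scaling gave 4 of the identity and 2 of the ligand list at 2 weeks, and 0 of the TAM list at 4 weeks. The microglial share was 5.05% (control), 2.62% (2 weeks) and 1.88% (4 weeks) among cells with at least 1000 UMIs, 2.07% (control) and 0.929% (2 weeks) with each library clustered alone, and 2.89% at 8 weeks with up to 40% mitochondrial UMIs. For the 7 genes at 3 times, 228 recomputed log2 ratios lay within the interval and 24 did not, and of those in the subsets added after seeing the data 51 did and 33 did not. With free RNA subtracted, Csf1r and Trem2 at 2 weeks changed sign, both to 0.12. The chemokine-high cluster alone gave 0.54 for Cx3cr1 and 0.01 for Csf1r at 4 weeks, against -0.28 and -0.21. Thinning to 1000 UMIs left the count at 1 lower at 2 and at 4 weeks, but the gene was Cx3cr1 (-1.33 and -1.21), with Axl under the filter. The cause of these changes was not tested. Depth limits Axl most, at 6 to 70 UMIs per library.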
